A study of Mus musculus with 48 samples.

Results

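The NRF2 target genes Nqo1, Hmox1, Slc48a1, Gclc, Gclm, Slc7a11, Txnrd1, Srxn1, Pgd and Osgin1 were followed through 27 RNA-seq libraries of a mouse study on mitochondrial damage in osteocytes, the cells embedded in bone matrix. They are 10 of the 55335 gene rows of each expression table. They were found by symbol, as textbook targets of 1 transcription factor, with no threshold on their values. The list was nevertheless chosen with earlier results of these data known. The libraries form 9 groups of 3, all of them labelled wild type and C57BL/6J. 6 groups were MLO-Y4 cells, an immortalised mouse osteocyte-like line derived from bone of a mouse carrying a viral antigen transgene. In the first experiment cells had either no treatment or 2 µM adenosine diphosphate (ADP, a nucleotide that acts on P2Y receptors) for 2 h. In the second, cells were kept for 1 h in fresh medium with DMSO vehicle alone or with oligomycin A, which blocks the proton channel of the mitochondrial ATP synthase. The supernatants of those cultures were then put on otherwise normally cultured cells for 2 h, which gave the oligomycin A supernatant and vehicle supernatant groups. The other 3 groups were bone. Long and parietal bone of mice aged 1 month was cut up, kept in culture for 24 h, and then either was given medium taken from other bone cultures (medium transfer) or served as the control until collection 48 h later. Cortical bone of femur and tibia from 18-month-old mice, with no treatment, was the last group.

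Some labels limit what these groups stand for. The oligomycin A treatment label reads 50 mM, which the protocol gives for the stock, with 50 µM on the cells. Vehicle libraries carry a treatment label that names oligomycin A together with DMSO, whereas title and protocol make them vehicle only. For the young bone, the labels do not say which donor age supplied the medium of either group, and for the old cortical bone the protocol wording has the bone harvested with its marrow. Whether replicates were separate cultures or animals is not given, and a p-value here covers no more than the scatter among these libraries, which may be technical. MLO-Y4 libraries had the osteocyte-associated genes Pdpn and Phex, but the other osteocyte markers Dmp1, Sost, Mepe and Fgf23 averaged below 1 FPKM in all 6 groups. Fgf23 also averaged below 1 FPKM in every bone group, as did Phex in old cortical bone and in the young bone controls.

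GENCODE M21 places the members, all protein-coding, on GRCm38 at chr8:107388225-107403206 (Nqo1), chr8:75093621-75100589 (Hmox1), chr15:97778520-97792692 (Slc48a1), chr9:77754535-77794485 (Gclc) and chr3:122245557-122270732 (Gclm). The others lie at chr3:49892526-50443614 (Slc7a11), chr10:82833951-82897712 (Txnrd1), chr2:152105516-152111376 (Srxn1), chr4:149149991-149166771 (Pgd) and chr8:119434124-119446256 (Osgin1).

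NRF2 (gene Nfe2l2) is a basic leucine zipper protein that KEAP1 holds in the cytoplasm and hands to a CUL3 ubiquitin ligase for degradation. Electrophiles and oxidants modify KEAP1, NRF2 then accumulates, pairs with a small MAF protein and binds antioxidant response elements, from which BACH1 can displace it. Its targets detoxify quinones and heme, make glutathione, reduce thioredoxin and peroxiredoxins, and supply NADPH. Hmox1 and Slc7a11 also respond to other stress factors, such as BACH1 release by heme and ATF4.

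Among the RefSeq promoters of GRCm38.p6, which run from 250 bases before to 50 after a start site, 7 of the 10 genes had an entry. Hmox1, Gclc and Slc48a1 had none. Each window was searched on both strands for the core of the antioxidant response element, TGACNNNGC, for the variant TGAGNNNGC, and for the AP-1 site TGAGTCA, which can lie inside the variant. The stretches upstream of the start site that held 1 of the cores are printed 5′ to 3′ on the gene's own strand, with the core in capitals, because 3 of these genes (Srxn1, Osgin1 and Slc7a11) changed in the same comparison. They lie at chr2:152105336-152105517 (plus strand) for Srxn1, chr8:119437018-119437086 (plus) for Osgin1, chr3:50443672-50443740 (minus) for Slc7a11, chr3:122245393-122245461 (plus) for Gclm and chr10:82859084-82859152 (plus) for Txnrd1.
Srxn1: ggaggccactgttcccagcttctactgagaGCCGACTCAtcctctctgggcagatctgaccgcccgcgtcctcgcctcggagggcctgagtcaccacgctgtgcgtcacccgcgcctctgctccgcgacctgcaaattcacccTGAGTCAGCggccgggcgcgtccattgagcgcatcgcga
Osgin1: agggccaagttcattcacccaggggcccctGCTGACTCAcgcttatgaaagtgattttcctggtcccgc
Slc7a11: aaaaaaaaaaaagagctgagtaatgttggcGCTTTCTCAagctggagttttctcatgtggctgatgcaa
Gclm: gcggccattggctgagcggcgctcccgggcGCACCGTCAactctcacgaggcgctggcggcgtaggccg
Txnrd1: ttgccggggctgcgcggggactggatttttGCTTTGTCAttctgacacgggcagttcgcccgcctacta

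Srxn1 and Osgin1 shared the 9 letters TGAGTCAGC, read on the gene strand from 45 bases before the start in Srxn1 and on the opposite strand, 99 bases before it, in Osgin1. Both copies contain TGAGTCA. Srxn1 held a further variant core, TGAGTCGGC, 158 bases before its start. Slc7a11 held TGAGAAAGC, Gclm TGACGGTGC and Txnrd1 TGACAAAGC, the last in 1 of its 3 promoter entries. A TGACNNNGC core was also found after the start site of Srxn1 and of Pgd, and neither core lay in the Nqo1 window. Over all 32851 promoters, 12.4% held TGACNNNGC, 17.6% held TGAGNNNGC and 5.20% held TGAGTCA, so a match is common and is given as a description only.

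Values are FPKM, which are scaled to transcript length and to the sequenced fragments of a library, so levels can be compared between genes. The 4 tables were deposited separately, and levels from different tables are set side by side with no test. In untreated MLO-Y4 cells of the ADP experiment the order by mean was Hmox1 at 99.7 FPKM, Slc48a1 at 93.2, Nqo1 at 69.9, Srxn1 at 66.4, Txnrd1 at 63.5, Pgd at 43.2, Gclc at 26.0, Gclm at 12.9, Osgin1 at 2.48 and Slc7a11 at 1.36. Nqo1, Srxn1 and Txnrd1 overlapped in that order, and so did Osgin1 and Slc7a11. Vehicle cells of the oligomycin experiment ran Hmox1 at 372 FPKM, Srxn1 at 137, Txnrd1 at 84.6, Slc48a1 at 74.3, Nqo1 at 54.2, Pgd at 46.2, Gclc at 44.9, Gclm at 16.1, Osgin1 at 10.8 and Slc7a11 at 3.39. There the libraries of Pgd and Gclc overlapped and those of the other neighbours did not. Hmox1 lay at the 99.2nd to 99.3rd percentile of expressed genes in vehicle cells, against the 96.8th to 97.1st in untreated cells of the other table.

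**Figure D1:**
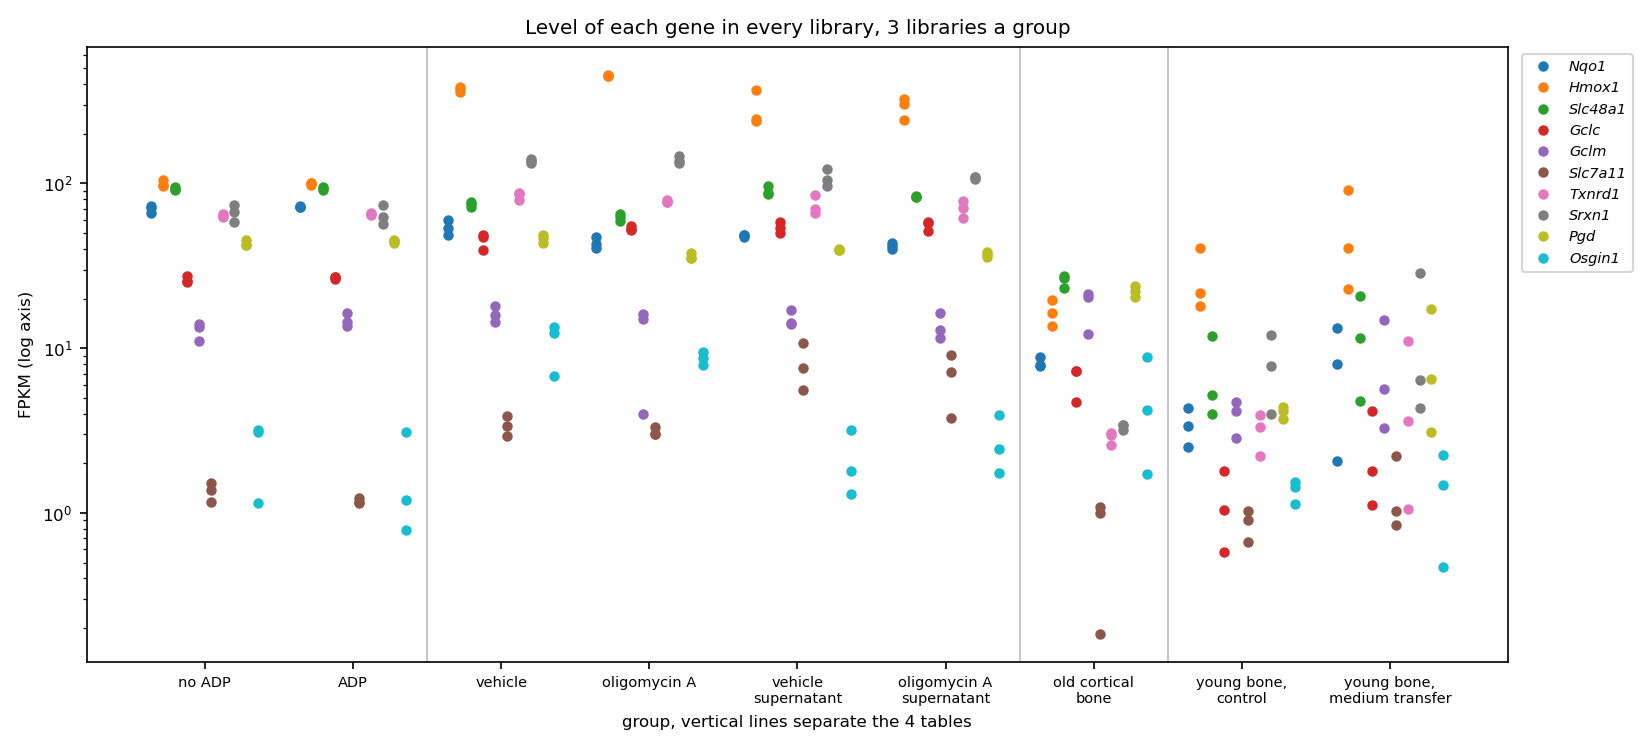
FPKM (log axis) of the 10 genes in each of 3 libraries per group, with vertical lines between the 4 separately deposited tables. Hmox1 is the highest of the 10 in all MLO-Y4 libraries, and Slc7a11 and Osgin1 are the lowest 2 by group mean in the untreated and vehicle groups.

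The first question of the oligomycin experiment was what inhibition of ATP synthase did to the treated cells within 1 h. No member rose and 3 of 10 fell at an adjusted p below 0.05, namely Pgd, Nqo1 and Slc48a1. Among all genes tested 5.34% changed in either direction. For 6 of the 10 members the vehicle and treated libraries were fully apart, against 29.9% of all genes. The median difference of the 10 was -0.18 on the log2(FPKM + 1) scale and that of all genes 0.00 when rounded, with 7 members below 0. That scale understates the change of low genes.

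Pgd encodes 6-phosphogluconate dehydrogenase, which makes NADPH in the pentose phosphate pathway. It read 46.4, 43.4 and 48.8 FPKM in vehicle cells and 35.3, 37.6 and 35.0 with oligomycin A, so every treated library was below every vehicle one. Its log2 difference was -0.35 ± 0.054 (SE, n = 3 a group), with an adjusted p of 0.00429 (limma).

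Nqo1 encodes NAD(P)H quinone dehydrogenase, which reduces quinones by a pair of electrons and is the usual readout of NRF2 activity. Its levels were 53.8, 48.9 and 60.0 FPKM with vehicle and 40.3, 47.0 and 42.8 with oligomycin A. The groups did not overlap, and the difference of -0.31 ± 0.076 had an adjusted p of 0.0391 (limma). Slc48a1, the transporter that carries heme out of lysosomes, read 74.6, 71.4 and 76.9 FPKM against 59.1, 64.9 and 62.9. Slc48a1 shares 29 of 2751 exon bases with Hdac7 on the opposite strand. All 3 treated libraries were lower, by -0.25 ± 0.058 on the log2 scale, with an adjusted p of 0.0325 (limma).

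Heme oxygenase 1, encoded by Hmox1, breaks down heme and is among the most inducible NRF2 targets. Hmox1 read 386, 358 and 372 FPKM with vehicle and 446, 450 and 455 with oligomycin A. The treated libraries were all higher and close to each other, yet the difference of 0.28 (95% interval -0.045 to 0.60) had an adjusted p of 0.296 (limma). The fit shares 1 spread over 4 groups, and the SD of Hmox1 was 14.0 and 4.65 FPKM in these groups but 71.8 and 41.9 in the supernatant groups. In a fit of the vehicle and oligomycin A groups alone its adjusted p was 0.0192 (limma).

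The glutathione genes did not pass the test. Gclc, the catalytic subunit of glutamate-cysteine ligase, read 47.0, 39.5 and 48.3 FPKM with vehicle and 53.1, 55.5 and 51.9 with oligomycin A. Every treated library was higher, with a log2 difference of 0.25 (0.065 to 0.44) and an adjusted p of 0.110 (limma). Gclm, the modifier subunit of that ligase, read 18.0, 15.9 and 14.5 FPKM with vehicle and 3.96, 16.0 and 15.1 with oligomycin A. 1 library, oligomycin A replicate 1, stood far below the other 5, and the difference of -0.62 became -0.04 without it. Gclm has 7 annotated transcripts and shares exon bases with Gm17494 on the opposite strand and the pseudogene Gm6061, whose part in that value was not tested. Slc7a11, the cystine importer of system xc-, overlapped between groups at 2.92 to 3.87 and 3.01 to 3.32 FPKM.

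In the thioredoxin system, Txnrd1, the cytosolic thioredoxin reductase, read 86.7, 79.3 and 87.9 FPKM with vehicle and 76.7, 77.0 and 78.9 with oligomycin A. Its groups did not overlap, and the difference of -0.12 (-0.34 to 0.096) had an adjusted p of 0.508 (limma). Srxn1, the sulfiredoxin that restores overoxidised peroxiredoxins, differed by 0.01 (-0.15 to 0.18), with 133 to 140 FPKM against 132 to 146. Osgin1, a growth inhibitor induced by oxidative stress, overlapped at 6.77 to 13.4 and 7.85 to 9.52 FPKM.

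None of the 10 pathway regulators and none of 26 other listed targets passed the limma test with oligomycin A, while 3 and 8 of them had an unadjusted p below 0.05, as had 22.2% of all genes. Nfe2l2 itself read 71.9, 63.9 and 67.7 FPKM with vehicle and 74.2, 76.3 and 76.4 with oligomycin A. It was higher in each treated library, with a difference of 0.16 (0.020 to 0.29) and an adjusted p of 0.166 (limma). Keap1 differed by -0.05 (-0.20 to 0.10) and Bach1 by 0.11 (-0.021 to 0.24).

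Vehicle replicate 2 stood apart from the other MLO-Y4 libraries of its table, with 27.2% of its summed FPKM in rRNA-like, 7S and satellite-like genes against 0.215% to 0.418%, and 8 of the 10 members were lowest there among vehicle libraries, as were 73.4% of all genes. Without it the same 3 genes were called. Scaling every library to the same total, which lowers all genes of that library, ended the 3 calls (adjusted p 0.437 for Pgd, limma) and put the median over all genes at 0.12. Pgd was called without any 1 of the 6 libraries, while Nqo1 lost its call without vehicle replicate 1 or 3 or oligomycin A replicate 1 or 3, and Slc48a1 without any of those or oligomycin A replicate 2. Both also missed the threshold with no filter on low values and in the fit of these groups alone.

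**Figure D2:**
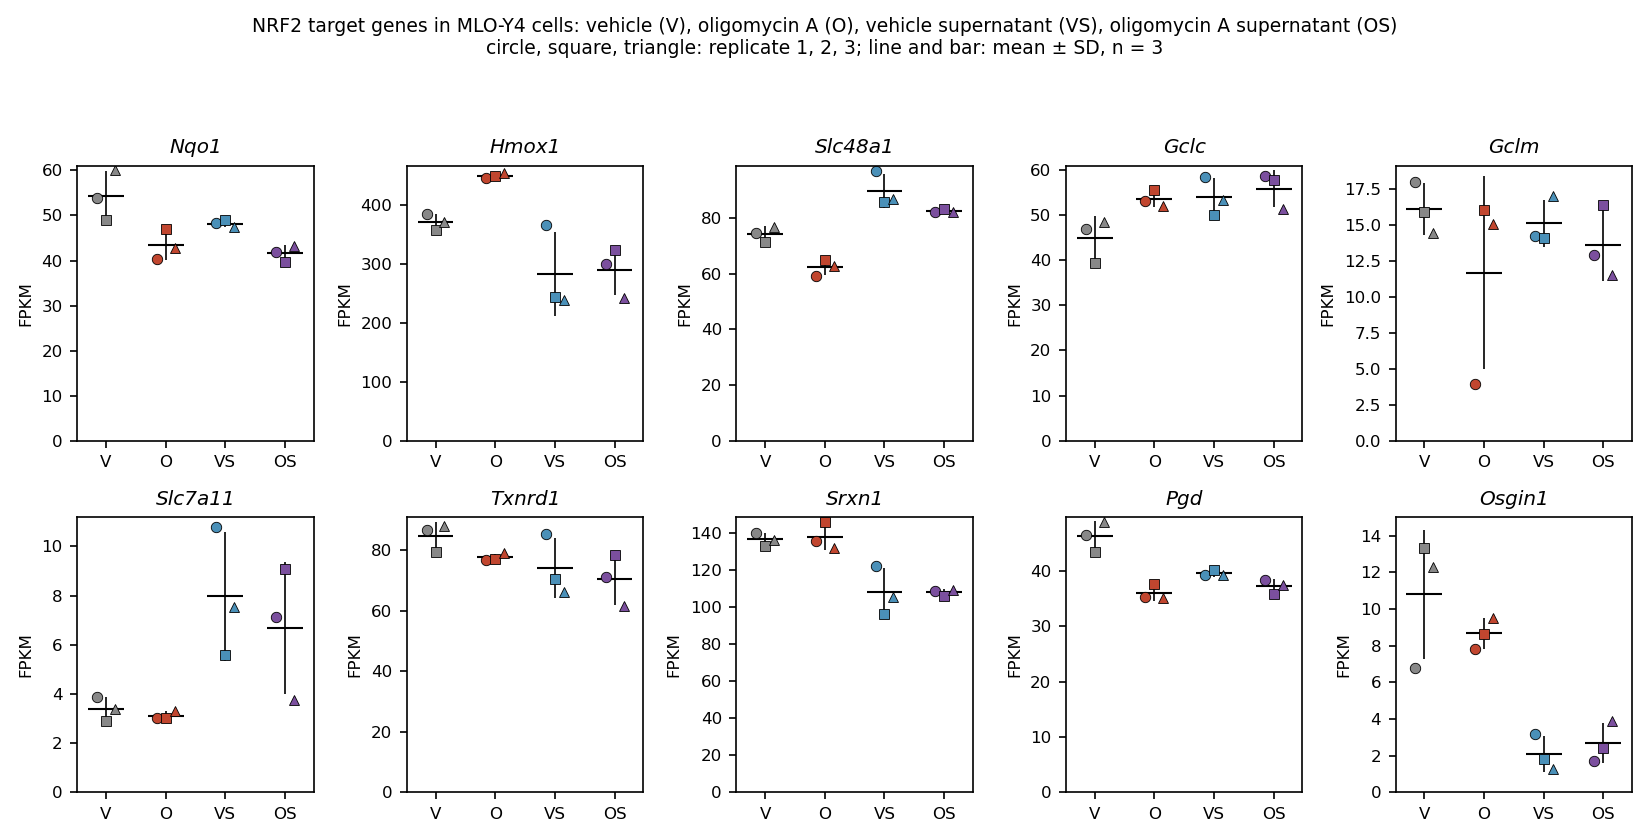
FPKM of the 10 genes in the 12 libraries of the oligomycin experiment, with axes from 0, symbols for replicates 1 to 3, a line for the mean and a bar for the SD. Pgd, Nqo1 and Slc48a1 lie lower with oligomycin A than with vehicle, Gclm has 1 treated library at 3.96 FPKM, and Osgin1 and Slc7a11 sit at different levels in the supernatant groups.

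The next question was whether the supernatant of oligomycin A cultures changed recipient cells. No member passed the limma test, against 0.386% of all genes, and 1 of 10 had an unadjusted p below 0.05, against 8.08% of all genes. For 3 of the 10 the groups did not overlap, against 13.1% of all genes, and these were the same 3 genes that fell in the treated cells, each of them lower. Nqo1 read 48.3, 48.9 and 47.3 FPKM with vehicle supernatant and 42.0, 39.7 and 43.3 with oligomycin A supernatant. Its difference of -0.21 (-0.37 to -0.040) had an unadjusted p of 0.0197 and an adjusted p of 0.456 (limma). Slc48a1 read 96.9, 85.6 and 86.9 FPKM against 82.4, 83.3 and 82.4, a difference of -0.12 (-0.24 to 0.011). Pgd read 39.2, 40.2 and 39.2 FPKM against 38.3, 35.8 and 37.5, a difference of -0.09 (-0.21 to 0.033).

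The other 7 members overlapped between the supernatant groups. Hmox1 differed by 0.05 (-0.27 to 0.37), Gclc by 0.05 (-0.14 to 0.24), Gclm by -0.15 (-0.95 to 0.65) and Slc7a11 by -0.25 (-0.80 to 0.30). Txnrd1 differed by -0.07 (-0.29 to 0.15), Srxn1 by 0.01 (-0.16 to 0.17) and Osgin1 by 0.26 (-0.35 to 0.87). The intervals of Gclm, Slc7a11 and Osgin1 are the widest of the 10. They use the spread shared over 4 groups, which for Gclm includes the oligomycin A library at 3.96 FPKM. Among the regulators 0 of 10 passed (1 at an unadjusted p below 0.05), and among other targets 0 of 26 (2). Nfe2l2 differed by 0.02 (-0.11 to 0.16), Keap1 by 0.02 (-0.13 to 0.17) and Bach1 by -0.03 (-0.16 to 0.10).

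Whether the response of recipients differed from that of treated cells was tested as the difference between both contrasts. 0 of 10 members passed (limma), against 0.445% of all genes, and 1 had an unadjusted p below 0.05, against 10.7% of all genes. Pgd was that member, with a response 0.27 higher in recipients (0.097 to 0.43), an unadjusted p of 0.00521 and an adjusted p of 0.222. For Nqo1 the responses differed by 0.11 (-0.13 to 0.34), for Slc48a1 by 0.13 (-0.045 to 0.31) and for Hmox1 by -0.23 (-0.68 to 0.23). The remaining differences were -0.20 for Gclc, 0.47 for Gclm, -0.16 for Slc7a11, 0.05 for Txnrd1, -0.01 for Srxn1 and 0.50 for Osgin1, all with intervals that include 0. Among the regulators 0 of 10 passed (1 unadjusted) and among the other targets 0 of 26 (2 unadjusted). Nfe2l2 differed by -0.13, Keap1 by 0.07 and Bach1 by -0.14.

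The largest changes of members lay between the vehicle groups. Vehicle supernatant cells had 2 h in medium conditioned by other cells and vehicle cells 1 h in fresh medium with DMSO, so time and medium cannot be told apart. 5 of 10 members changed, against 14.7% of all genes. Slc7a11 and Slc48a1 rose, and Osgin1, Srxn1 and Pgd fell. The groups did not overlap for 7 members, against 34.1% of all genes. The median difference of the members was -0.18 and that of all genes 0.03. This comparison shares the vehicle libraries with the oligomycin A comparison and the vehicle supernatant libraries with the recipient comparison.

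Osgin1 read 6.77, 13.4 and 12.3 FPKM in vehicle cells and 3.19, 1.81 and 1.30 in vehicle supernatant cells. Every recipient library was lower, by -1.93 ± 0.28 on the log2 scale, with an adjusted p of 0.00151 (limma). Oligomycin A supernatant cells were also low, at 1.74, 2.44 and 3.91 FPKM, and oligomycin A cells stood with vehicle cells at 7.85, 8.66 and 9.52. Untreated cells of the ADP table read 3.09, 1.14 and 3.20 FPKM.

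Slc7a11 read 3.87, 2.92 and 3.38 FPKM in vehicle cells and 10.8, 5.57 and 7.55 in vehicle supernatant cells. All recipient libraries were higher, by 1.00 ± 0.25, with an adjusted p of 0.0238 (limma). In oligomycin A supernatant cells it ranged from 3.77 to 9.09 FPKM, and in untreated cells of the ADP table from 1.17 to 1.52.

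Srxn1 read 140, 133 and 136 FPKM with vehicle and 122, 96.6 and 105 with vehicle supernatant, lower in each recipient library. Its difference was -0.34 ± 0.075, with an adjusted p of 0.013 (limma). Pgd was lower by -0.22 ± 0.054 (adjusted p 0.0227), with 43.4 to 48.8 FPKM against 39.2 to 40.2. Slc48a1 was higher by 0.27 ± 0.058 (adjusted p 0.0116), with 71.4 to 76.9 FPKM against 85.6 to 96.9. Of the genes with a printed upstream core, Srxn1 and Osgin1 (TGAGTCAGC) fell, Slc7a11 (TGAGAAAGC) rose, and Gclm and Txnrd1 did not pass. Pgd, with no core upstream of its start, also fell, and Slc48a1, with no promoter entry, also rose. A link between core and direction was not tested.

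Members that did not pass were Gclc, with a difference of 0.26 (adjusted p 0.0631, limma), Hmox1, with -0.42 (0.0783), Nqo1, with -0.16 (0.179), Txnrd1, with -0.20 (0.207), and Gclm, with -0.09 (0.903). Gclc was higher and Nqo1 lower in each recipient library, at 50.0 to 58.4 FPKM against 39.5 to 48.3 and at 47.3 to 48.9 against 48.9 to 60.0. Hmox1 read 358 to 386 FPKM with vehicle, 245 and 239 in vehicle supernatant replicates 2 and 3, and 366 in replicate 1. Without that library its difference of -0.62 had an adjusted p of 0.00578 (limma).

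Of the 10 pathway regulators 1 rose and 2 fell in this comparison, where 14.7% of all genes were called. Nfe2l2 read 71.9, 63.9 and 67.7 FPKM with vehicle and 93.8, 83.4 and 83.3 with vehicle supernatant, and rose by 0.35 ± 0.062 (adjusted p 0.00463, limma). The small MAF genes Maff and Mafk, whose proteins pair with NRF2 or BACH1, fell by 0.55 (adjusted p 0.00225) and by 0.39 (adjusted p 0.0114). Keap1 differed by -0.01 (-0.16 to 0.14) and Bach1 by -0.19 (-0.32 to -0.061, adjusted p 0.0524), with adjusted p of 0.0278 to 0.036 under 3 of the 4 other scalings. Of 26 other targets 2 rose and 1 fell, a share below that of all genes. Abcc1, a glutathione conjugate exporter, differed by 0.37 (adjusted p 0.0101), Gss, glutathione synthetase, by 0.29 (adjusted p 0.0124), and Ephx1, microsomal epoxide hydrolase, by -0.28 (adjusted p 0.0163).

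Osgin1, Srxn1 and Slc48a1 were called without any 1 of the 6 libraries. Slc7a11 lost its call without vehicle replicate 2 or 3 or vehicle supernatant replicate 1 or 3 (adjusted p 0.0579 to 0.0877, limma), Pgd without vehicle replicate 1 or 3 or vehicle supernatant replicate 1 or 3 (adjusted p 0.0574 to 0.0747), and Ephx1 without vehicle replicate 3 or vehicle supernatant replicate 2 or 3. Scaling to the same total, with a median over all genes of 0.14, and a fit of these 2 groups alone each left only Slc7a11 and Osgin1 called among the members, and Slc7a11 was not called with no filter on low values. With the first the calls of Maff, Mafk, Abcc1, Gss and Ephx1 were also lost, and with the second that of Mafk.

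**Figure D3:**
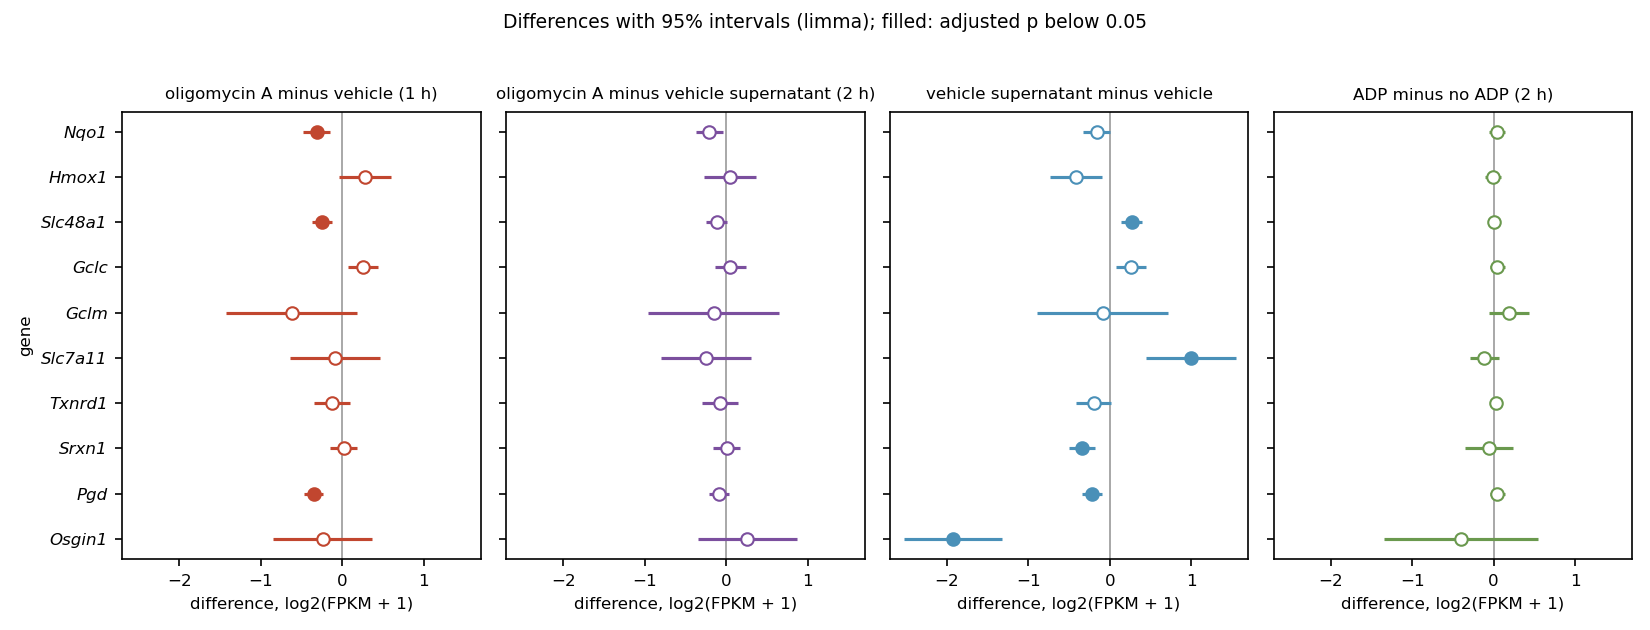
Difference of each gene on the log2(FPKM + 1) scale (x axis) with its 95% interval from limma in 4 comparisons, filled where the adjusted p was below 0.05. Filled points are Pgd, Nqo1 and Slc48a1 for oligomycin A, none for the supernatants or ADP, and Slc7a11, Slc48a1, Osgin1, Srxn1 and Pgd between the vehicle groups.

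Within the supernatant groups the members varied by library, and not only there. In the oligomycin A group replicate 1 was the lowest for 7 of the 10 members, against 31.1% of all genes. Replicate 2 of that group was the highest for 6, against 31.8% of all genes. Vehicle supernatant replicate 1 was the highest of its 3 libraries for 7 of the 10 members (Hmox1, Txnrd1, Slc7a11, Gclc, Srxn1, Osgin1 and Slc48a1), whereas it was the highest for 32.8% of all genes. Oligomycin A supernatant replicate 3 was the lowest of its 3 for 6 members (Hmox1, Txnrd1, Slc7a11, Gclm, Gclc and Slc48a1) and for 32.7% of all genes. The 10 genes summed to 845, 658 and 663 FPKM in vehicle supernatant libraries and to 724, 754 and 647 in oligomycin A supernatant libraries. These libraries did not stand apart in rRNA-like, 7S and satellite-like genes, at 0.323% to 0.415% of the summed FPKM. Sqstm1, which encodes the KEAP1-binding autophagy receptor p62 and was singled out after its values were seen, read 319, 192 and 204 FPKM in vehicle supernatant cells and 277, 316 and 196 in oligomycin A supernatant cells. The highest library of either group was the same as for Hmox1, and so was the lowest oligomycin A supernatant library.

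**Figure D4:**
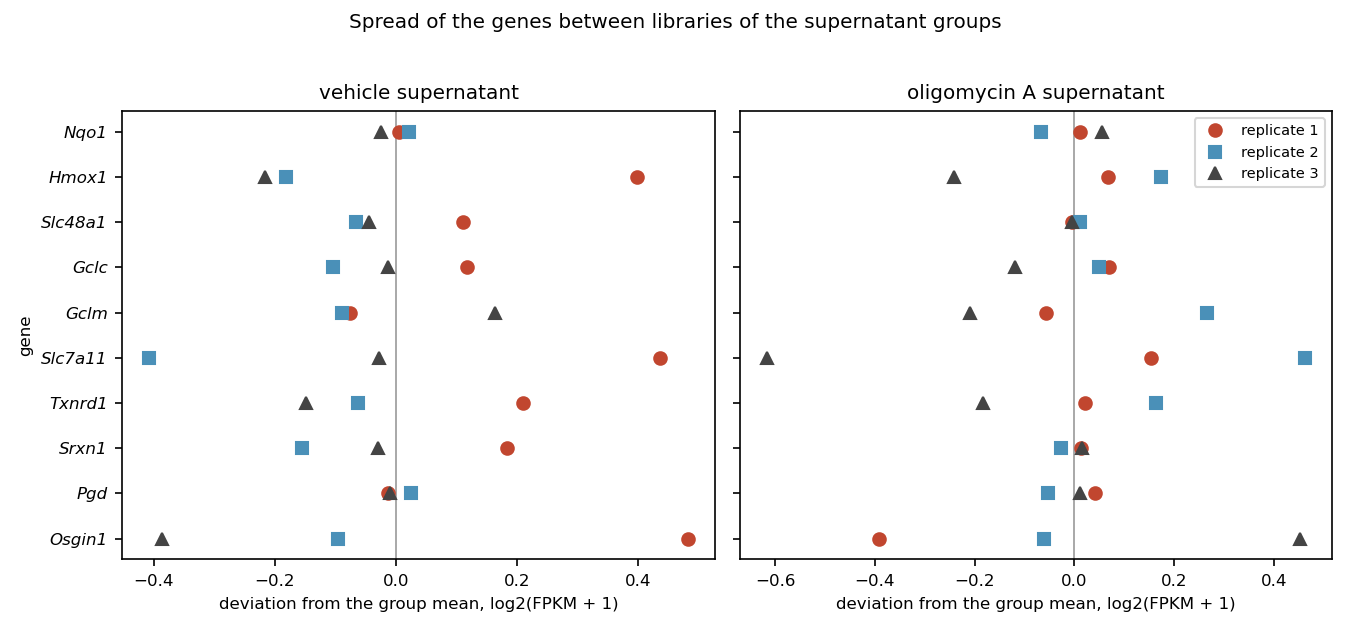
Deviation of each gene from its group mean on the log2(FPKM + 1) scale (x axis) in the 3 libraries of either supernatant group, by replicate. Replicate 1 of the vehicle supernatant lies to the right for 7 of 10 genes, and replicate 3 of the oligomycin A supernatant to the left for 6.

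By the smallest root mean square difference of centred log2(FPKM + 1) values over the 12 libraries, the genes most like Osgin1 were Ubb (0.46), Sertad1 (0.47) and Csrnp2 (0.47), of 486 genes with a mean of at least 5 FPKM and a range of at least 1. Ubb averaged 325, 468, 152 and 189 FPKM in vehicle, oligomycin A, vehicle supernatant and oligomycin A supernatant cells, so unlike Osgin1 it was higher with oligomycin A than with vehicle. The same held for Sertad1, at 40.0 FPKM with vehicle and 53.9 with oligomycin A, and for Csrnp2, at 7.54 and 10.9. The genes most like the mean profile of the 10 members were Ap3s2 (0.080), Amacr (0.085) and G3bp1 (0.086), of 7075 genes. No minimum range was set here, and a mean over members that rose and fell is itself nearly flat. Ap3s2 averaged 6.14, 5.79, 5.82 and 5.64 FPKM in the same order of groups, so this likeness does not show genes that track the members. All points come from the same 12 libraries, and no test was made of these likenesses.

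The ADP experiment asked how a purinergic agonist changed MLO-Y4 cells in 2 h. 0 of 10 members passed the limma test, against 0.0603% of all genes, and 0 had an unadjusted p below 0.05, against 5.84% of all genes. The groups overlapped for all 10 members, against 10.6% of genes without overlap, and the members' median difference was 0.02 against 0.00 for all genes. Hmox1 read 96.1, 105 and 97.8 FPKM without ADP and 101, 97.2 and 101 with it, a difference of 0.00 (-0.10 to 0.095). Nqo1 read 65.9, 72.7 and 71.1 FPKM against 72.0, 71.5 and 73.1, a difference of 0.05 (-0.049 to 0.15). For these 2 genes the interval leaves room for a change of at most 0.15 in either direction.

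Intervals were as narrow for Slc48a1 (-0.064 to 0.068), Gclc (-0.046 to 0.14), Txnrd1 (-0.033 to 0.094) and Pgd (-0.048 to 0.13). They were wider for Gclm (-0.052 to 0.43), Slc7a11 (-0.29 to 0.064) and Srxn1 (-0.34 to 0.24). Osgin1, at 3.09, 1.14 and 3.20 FPKM without ADP and 1.20, 3.10 and 0.790 with it, had an interval from -1.34 to 0.55. Its libraries varied between low and high in both groups. Regulators passed in 0 of 10 cases (1 at an unadjusted p below 0.05) and other targets in 0 of 25 (2). Nfe2l2 differed by -0.02 (-0.10 to 0.070), Keap1 by 0.03 (-0.16 to 0.22) and Bach1 by -0.03 (-0.18 to 0.13).

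In young bone, medium transfer was compared with the control, each at 48 h, and the donor age behind the medium of either group is not given. 0 of 10 members passed the limma test, against 0.0243% of all genes, and 0 had an unadjusted p below 0.05, against 2.24% of all genes. No member had groups without overlap, against 4.08% of all genes. For 9 of the 10 the difference was above 0, with a median of 0.62, but so it was for 85.1% of all genes, whose median was 0.45. In bulk tissue, fewer cells of a type and less RNA per cell cannot be told apart.

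The young bone libraries differed in what else they held. rRNA-like, 7S and satellite-like genes took 68.2%, 11.9% and 90.8% of the summed FPKM in medium transfer replicates 1 to 3 and 86.9%, 89.4% and 82.5% in the controls. Among the 3 medium transfer libraries, all 10 members were lowest in replicate 3, as were 71.2% of all genes, and 7 of them were highest in replicate 2, as were 48.5% of all genes. Their sum was 94.0, 199 and 43.8 FPKM with medium transfer and 52.8, 42.0 and 83.6 in the controls. Rescaled without those genes, it was 78.5, 91.9 and 84.9 against 76.3, 73.6 and 97.1, and the groups overlapped.

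Sums of cell type markers differed too, but they were not rescaled, and 85.1% of all genes were higher with medium transfer in the deposited values. As deposited, the summed FPKM of 6 erythroid markers ranged from 7184 to 14677 with medium transfer and from 2679 to 5405 in the controls. The 5 adipocyte markers summed to 11.5 to 95.9 against 3.75 to 5.40, and the 5 B lineage markers to 24.2 to 95.4 against 14.8 to 23.9. These 3 lists did not overlap between the groups, while the other 8 lists overlapped. None of their markers was at 0 in every library of a group, but single libraries did reach 0. In the controls 4 of the 5 adipocyte markers averaged under 1 FPKM, and with medium transfer the adipocyte marker Cfd ranged from 0 to 84.8 FPKM. The part of these cell types in the members' values was not tested.

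Hmox1 was the highest member in every young bone library, at 40.8, 91.5 and 22.8 FPKM with medium transfer and 21.6, 18.0 and 40.3 in the controls. Rescaled, it read 34.1, 42.3 and 44.1 against 31.1, 31.5 and 46.8. Nqo1 read 13.2, 7.97 and 2.07 FPKM against 4.35, 3.35 and 2.51, with medium transfer replicate 1 above the rest on either scale. Deposited values gave log2 differences of 0.79 (-0.96 to 2.54) for Hmox1 and 0.75 (-0.63 to 2.13) for Nqo1. They were 0.67 for Slc48a1, 0.59 for Gclc, 0.66 for Gclm, 0.30 for Slc7a11, 0.24 for Txnrd1, 0.34 for Srxn1, 0.70 for Pgd and -0.05 for Osgin1, with intervals that all reach below -0.59 and above 1.14. Txnrd1, Srxn1 and Slc7a11 changed sign, to -0.37, -0.26 and -0.017, when rescaled without rRNA-like, 7S and satellite-like genes.

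Regulators passed in 0 of 10 cases and other targets in 0 of 26, with 0 at an unadjusted p below 0.05 in either list. Nfe2l2 differed by 0.45 (-1.06 to 1.97), Keap1 by 0.59 (-0.68 to 1.85) and Bach1 by 0.41 (-0.85 to 1.68).

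**Figure D5:**
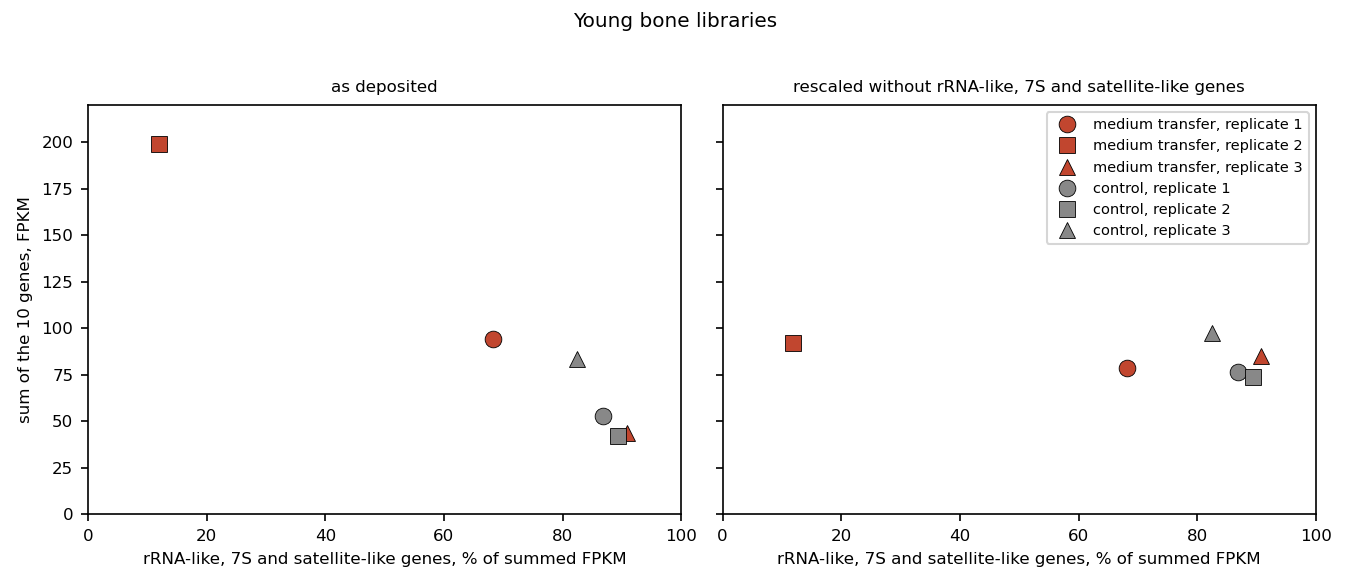
Sum of the 10 genes in FPKM (y axis) against the share of rRNA-like, 7S and satellite-like genes in the summed FPKM (x axis) for the 6 young bone libraries, as deposited and rescaled without those genes. The medium transfer library at 11.9% reads 199 FPKM as deposited, and after rescaling all 6 lie between 73.6 and 97.1.

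Old cortical bone had no comparison group in its table, and only levels are given. Slc48a1 led at 26.6, 27.4 and 23.3 FPKM, followed by Pgd at 22.1, 23.7 and 20.3 and Gclm at 20.5, 12.3 and 21.2. Hmox1 was next, at 13.7, 19.6 and 16.3 FPKM, and these 4 genes were higher than the other 6 in each library. Nqo1 averaged 8.16 FPKM, Gclc 6.43, Osgin1 4.93, Srxn1 3.34 and Txnrd1 2.86. Osgin1 varied most among these, at 1.72, 4.24 and 8.82 FPKM, and overlapped all of them. Slc7a11, at 0.760 FPKM, was the only member with a mean under 1.

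Markers of marrow blood cells were abundant in these libraries. The summed FPKM of 6 erythroid markers ranged from 257720 to 276830, and that of 6 neutrophil markers from 66686 to 71814, while the 6 osteocyte markers summed to 38.0 to 202. Slc48a1, which leads here, is known for its role in macrophages that recycle red cells. The 5 macrophage markers summed to 39.6 to 64.2 FPKM. Of these, Cd68 averaged 40.0 FPKM, Csf1r 4.88, Adgre1 2.16, Mrc1 0.993 and Vsig4 0.185. In MLO-Y4 cells, where Adgre1 and Vsig4 were at 0, Slc48a1 averaged 62.3 to 93.3 FPKM by group. The part of marrow cells in any of the old bone levels was not tested.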

How the data were processed

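The 10 genes, the pathway lists and the markers were chosen with earlier results of these data known. The authors deposited 4 tables of FPKM values with 55335 gene rows each, from poly(A)-selected RNA per the labels' protocols. HTSeq and mm10 are named, without a role, per the submitters' processing notes, and no source used here gives the step that made FPKM. Of 48 labelled samples, 27 had a column and 21 were not analysed here. In the first vehicle library, 98.8% of expressed genes with several transcripts in GENCODE M21 carried more than 6 decimals, against 0.655% of single-transcript genes, so a gene's value appears to be put together from its transcripts, and all members but Nqo1 have more than 1. The step at which low values of single-transcript genes piled up most put MLO-Y4 depth at about 16.4 to 27.6 M fragments. Such a search returns a step for any library. Only 26.7% to 31.7% of those low values were whole within 0.1 fragment, and young bone controls gave 28.3% to 29.2%. MLO-Y4 depth is therefore uncertain, no count test was made, and bone depth is unknown.

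Groups came from sample titles. log2(FPKM + 1) was fitted with limma 3.58.1 (R 4.3.3) within a table, with a trend in the variance prior and a mean of 1 FPKM as the minimum, with Benjamini-Hochberg adjustment over all genes tested. The 4 oligomycin groups shared 1 fit. The fit was tested on simulated data. Any pair of libraries in a table had at most 0.00904% identical values. All 10 members are named throughout; of the pathway lists Nfe2l2, Keap1 and Bach1 always and other genes where called. Alternatives were other pseudocounts, filters, scalings and variance priors, a replicate block, each library left out, and only the compared groups. Positions and overlaps are from GENCODE M21 (GRCm38) and promoters from RefSeq.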

Additional observations from a re-analysis of the deposited data

How the results depend on the processing

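Members called in the ADP, supernatant, recipient-minus-treated and young bone comparisons numbered 0 under every alternative run. For oligomycin A against vehicle the 3 calls became 1 with no filter on low values, 0 with each library rescaled to one total, and 1 to 3 with 1 library left out. With only the compared groups Nqo1 and Slc48a1 lost their calls, and Hmox1, which was higher, gained one. For vehicle supernatant against vehicle the 5 calls became 2 with one total, 2 with only the compared groups, and 3 to 5 with 1 library left out. Deviations of same-numbered replicates had correlations from -0.228 to 0.0587. Libraries were most like their own number in 0, 2 or 4 of 6 cases, the 4 for vehicle supernatant against vehicle. No pairing was assumed in the main fits, though 3 libraries a group cannot exclude it. With a replicate block 1 member was called for oligomycin A against vehicle, 5 for vehicle supernatant against vehicle, and 0 in the other comparisons. The count of all genes called went from 636 to 434, from 1746 to 1460, from 46 to 28 and from 53 to 35 in the 4 comparisons of the oligomycin fit.

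Over 1371 recomputed single-gene values, 1246 kept direction and side of the threshold, 42 lost a call, 6 gained one and 77 changed sign. No value that changed sign was called on either side, and the causes were not tested. With one total the signs changed, under ADP, for Slc48a1 (-0.016), with oligomycin A for Slc7a11 (0.025), Txnrd1 (0.027) and Keap1 (0.091), in recipient minus treated cells for Nqo1 (-0.026), Txnrd1 (-0.081) and Keap1 (-0.055), between the vehicle groups for Gclm (0.033) and Keap1 (0.10), and in young bone for Osgin1 (0.28). With quantile normalization they changed for Slc48a1 under ADP (-0.029), Srxn1 with oligomycin A (-0.0086), Hmox1 (-0.026) and Nfe2l2 (-0.0068) between supernatants, Srxn1 in recipient minus treated cells (0.019), and in young bone Gclm (-0.041), Txnrd1 (-0.51), Srxn1 (-0.40), Pgd (-0.033) and Nfe2l2 (-0.29). Without rRNA-like, 7S and satellite-like genes they changed for Slc48a1 under ADP (-0.0089), Srxn1 in recipient minus treated cells (0.0064), and in young bone Slc7a11 (-0.017), Txnrd1 (-0.37), Srxn1 (-0.26) and Nfe2l2 (-0.17). Median-of-ratios scaling changed it in young bone for Txnrd1 (-0.21), Srxn1 (-0.11) and Nfe2l2 (-0.029).

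Leaving out 1 library gave ranges across 0. Under ADP these were -0.0098 to 0.018 for Slc48a1, -0.029 to 0.037 for Hmox1, -0.15 to 0.036 for Srxn1, -0.037 to 0.011 for Nfe2l2, -0.045 to 0.11 for Keap1 and -0.072 to 0.0074 for Bach1. Between supernatants they were -0.15 to 0.034 for Txnrd1, -0.058 to 0.25 for Hmox1, -0.0015 to 0.11 for Gclc, -0.072 to 0.097 for Srxn1, -0.48 to 0.057 for Slc7a11, -0.0049 to 0.080 for Nfe2l2, -0.043 to 0.075 for Keap1 and -0.065 to 0.0087 for Bach1. In recipient minus treated cells they were -0.085 to 0.083 for Srxn1, -0.11 to 0.78 for Gclm, -0.40 to 0.14 for Slc7a11 and -0.029 to 0.16 for Txnrd1. Srxn1 with oligomycin A gave -0.027 to 0.044, and Keap1 between the vehicle groups -0.046 to 0.052. In young bone they were -0.41 to 0.86 for Txnrd1, -0.40 to 0.84 for Srxn1, -0.32 to 1.15 for Nfe2l2 and -0.31 to 0.26 for Osgin1. In young bone the 95% interval of every member spans more than 2 log2 units, and in the oligomycin experiment the low genes Osgin1 and Slc7a11 had the widest intervals besides Gclm.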
